A study of Mus musculus with 6 samples.

Results

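Genes for the proteins of the cytoplasmic ribosome were followed in blood stem and progenitor cells with and without miR-21. The probe sets were those that the platform annotation names for a single gene with a symbol of Rpl or Rps and a number, or Rplp0, Rplp1, Rplp2 or Rpsa, without pseudogenes marked -ps and without the Rps6k kinases. This gave 54 probe sets of 65956 on the array, for 47 gene symbols of 30701. Of the 47 genes, 33 encode core ribosomal proteins (18 of the large and 15 of the small subunit) and 12 are paralogues or copies of such genes, 8 of the large and 4 of the small subunit. The symbol rule also took in Rps19bp1, which encodes a binding partner of a ribosomal protein, and Rps23rg1, a retrogene with its own reading frame, and both were kept apart from the subunits. RefSeq lists 4 of the 47 (Rps4l, Rpl6l, Rps3a2 and Rps3a3) as pseudogenes.

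The cells were Lineage- c-Kit+ Sca1+ (LSK) cells sorted from mouse bone marrow. There were 3 knockout samples (miR-21flox/flox:Mx1-Cre+) and 3 littermate control samples (miR-21flox/flox:Mx1-Cre-), each on 1 array. Mice of both groups were given pIpC 7 times, 250 µg each, starting when they were 4 to 6 weeks old, and marrow was collected after a further 4 weeks. The agent pIpC raises interferon, which turns on the Mx1 promoter that drives Cre, so deletion was not limited to blood cells. Only knockout mice carried Cre, so Cre itself and miR-21 loss cannot be told apart. The sources used here do not say whether a sample was 1 mouse or a pool, so each p-value speaks of array-to-array spread alone.

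The ribosome joins a small subunit, which reads the messenger RNA, to a large subunit, which forms the peptide bonds. Its proteins are made in matched amounts, and most of their messenger RNAs begin with a run of pyrimidines (the terminal oligopyrimidine, or TOP, element) through which the kinase complex mTORC1 controls their translation. Blood stem cells are known to keep protein synthesis low, and loss of a single copy of some of these genes causes inherited marrow failure, as in Diamond-Blackfan anaemia.

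Promoter sequence is shown for the 3 genes of each subunit with the largest change in either direction that had an entry in the RefSeq promoter table, so that the start of the transcript can be set beside the values given further on. The table (build GRCm38.p6) held 38 of the 47 genes, and the first start listed for each gene was used. For Rpl12 the start lies on chromosome 2, while the value comes from a probe set named for chromosome 10. Each stretch runs from 60 bases before the start to 25 bases after it. Capitals mark the longest run of C and T within 15 bases before and 25 after the start where it had at least 6 bases, and the letters CCGGAAG, the core recognised by ETS family factors, on either strand. The stretches lie at chr9:66946026-66946110, plus strand (Rps27l), chr17:27635220-27635304, minus strand (Rps10), chr10:80292371-80292455, plus strand (Rps15), chr2:32961652-32961736, plus strand (Rpl12), chrX:37085198-37085282, minus strand (Rpl39) and chr3:28805448-28805532, plus strand (Rpl22l1).
Rps27l: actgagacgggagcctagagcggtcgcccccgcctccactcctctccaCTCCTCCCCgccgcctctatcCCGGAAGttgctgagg
Rps10: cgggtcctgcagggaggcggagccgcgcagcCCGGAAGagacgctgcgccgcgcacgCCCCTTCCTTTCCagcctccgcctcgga
Rps15: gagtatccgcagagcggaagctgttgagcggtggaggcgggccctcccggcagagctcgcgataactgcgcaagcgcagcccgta
Rpl12: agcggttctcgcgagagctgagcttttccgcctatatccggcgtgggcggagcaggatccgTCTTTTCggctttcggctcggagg
Rpl39: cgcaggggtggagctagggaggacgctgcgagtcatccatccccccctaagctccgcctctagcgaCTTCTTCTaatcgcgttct
Rpl22l1: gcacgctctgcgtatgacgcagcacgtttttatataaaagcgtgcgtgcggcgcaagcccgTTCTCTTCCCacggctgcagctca

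Rps10 had the longest pyrimidine run of the 6, with 13 bases that began 3 bases before the start. The runs of Rpl22l1 (10 bases), Rpl39 (8) and Rpl12 (7) lay after the start, while that of Rps27l (9) ended before it. A run of at least 8 bases was present in 12 of the 28 core genes in the table (42.9%) and in 15.2% of all 27025 genes in it. In the whole 300 bases, CCGGAAG on either strand stood in 14 of the 28 core genes, 8 of 16 of the large and 6 of 12 of the small subunit, and in 9.12% of all genes. The letters AAGATGGC, the core recognised by YY1, were in 0 of the 28 on either strand and in 2.88% of all genes. Such matches describe the letters only.

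Ribosomal protein mRNAs changed little in the knockout LSK cells. Of the 47 genes, 7 rose, 0 fell and 40 did not pass the test. The values used were the deposited log2 values, the brightest probe set of each gene was taken, and the test was limma with Benjamini-Hochberg adjustment over all 19083 genes above the dim level, at an adjusted p under 0.05. Changes are knockout minus control differences of mean log2 values, ± standard error. All 47 were above the dim level of 1.92 on the log2 scale. The 7 of 47 come to 14.9%, while 31.1% of all genes tested passed, 19.1% higher and 12% lower. The median change of the 47 was 0.09, beside 0.07 for all genes tested. At an unadjusted p under 0.05 in limma, 13 of the 47 passed, with Rps4l among them as a fall. The share of all genes at that threshold was not counted, but it is at least the 31.1% that passed after adjustment. The 95% intervals of all 47 changes lay between -0.55 and 0.55, so that a change of over 1.47-fold was outside the interval of each of them.

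**Figure D1:**
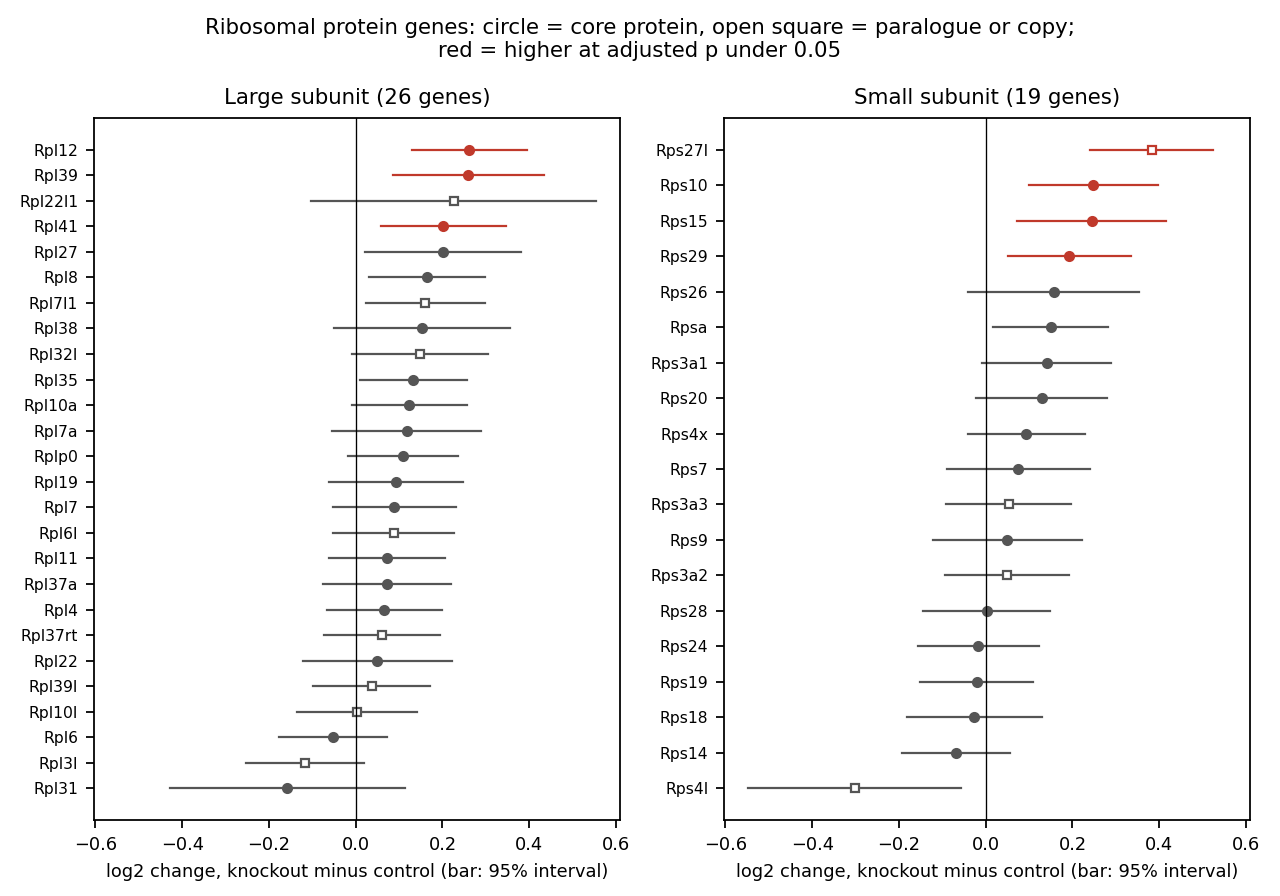
Log2 change (knockout minus control) of each large and small subunit gene with its 95% interval from limma; circles are core proteins, open squares paralogues or copies, and red marks genes higher at an adjusted p under 0.05. The 7 red genes lie between 0.19 and 0.38, and most other intervals include 0.

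The subunits moved by like amounts. Of the 26 large subunit genes, 3 rose (11.5%, beside 19.1% of all genes tested) and the other 23 fell short of the threshold. Their median change was 0.10 and their range -0.16 to 0.26. Of the 19 small subunit genes, 4 rose (21.1%) and 15 fell short, at a median of 0.08 and a range of -0.30 to 0.38. Among core proteins alone, 3 of 18 large (16.7%, median 0.11) and 3 of 15 small subunit genes (20%, median 0.09) rose. All 15 small subunit genes were read by a probe set named for the gene's own chromosome. Of the 18 large subunit genes this held for 12, and 1 of these 12 rose (8.33%, median 0.09).

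Averaged over the 18 core large subunit genes, the log2 value was 8.16, 8.09 and 8.18 on knockout arrays 1 to 3 and 8.08, 7.96 and 8.07 on control arrays 1 to 3. The knockout arrays were all above the controls, by 0.11 in the mean. Over the 15 core small subunit genes it was 7.63, 7.56 and 7.67 in the knockout and 7.58, 7.46 and 7.54 in control. Here the groups overlapped, since knockout array 2 lay below control array 1, and the means differed by 0.09. Within each replicate number the knockout array was the higher one for both subunits, by 0.04, 0.11 and 0.12 for the small and 0.08, 0.13 and 0.11 for the large subunit. The large minus small difference was 0.53, 0.53 and 0.52 in the knockout and 0.49, 0.50 and 0.53 in control, with overlapping groups and a shift of 0.02. That shift was of the size of the SD among control arrays, 0.02, and no test was run on this difference of averages. With only the 12 large subunit genes read on their own chromosome, large minus small averaged 0.02 in the knockout and 0.01 in control.

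Both arrays numbered 2 read low for these genes. Knockout array 2 was the lowest of its group for 33 of the 47 genes and control array 2 for 36 of the 47. The mean deviation of the 47 from their group mean was -0.05 on knockout array 2 and -0.08 on control array 2, against medians over all genes of -0.0025 and -0.0113. Same-numbered arrays deviated together over all genes tested, with correlations of 0.22, 0.33 and 0.10 for numbers 1, 2 and 3. Knockout array 3 and control array 1 were at 0.13, above the value for number 3. The other unlike-numbered pairs ran from -0.28 to -0.03. By construction the deviations within a group sum to 0 for each gene, so the negative values add nothing to the positive ones. With the replicate number as a block, 10 of the 47 rose and 0 fell, 6 of them in the large subunit in place of 3 and 4 in the small subunit, while the share of all genes that passed was 37.8%. The large subunit genes gained with the block were Rpl22l1 (0.23, limma adjusted p = 0.0234), Rpl27 (0.20, adjusted p = 0.0386) and Rpl8 (0.16, adjusted p = 0.0458). Without both arrays numbered 2, an alternative which was tried after the data had been seen, 1 gene of the 47 rose (Rps27l) and 1 fell (Rps4l).

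**Figure D2:**
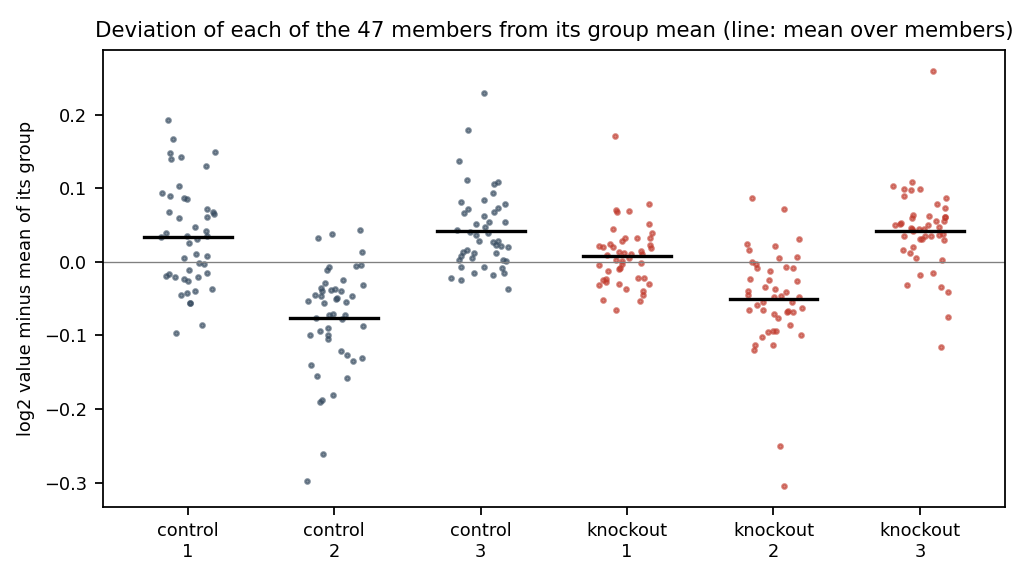
Deviation of the log2 value of each of the 47 genes from the mean of its own group, by array; horizontal lines are means over the genes. The means of control array 2 (-0.08) and knockout array 2 (-0.05) lie below those of the other arrays of their groups.

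The small subunit held the highest change. Rps27l, a paralogue of Rps27 known as a p53-responsive gene, read 7.10, 7.11 and 7.26 on the knockout arrays and 6.75, 6.77 and 6.80 on the controls. All knockout arrays lay above all controls. The gene rose by 0.38 ± 0.06 (SE, n = 3 each, 1.30-fold, limma adjusted p = 0.00232), and it kept its call under every alternative tried, with changes of 0.33 to 0.41 and adjusted p of 0.00147 to 0.0145. Of 7 genes of the Mdm2-p53 checkpoint tested, 0 rose, 5 did not pass and 2 fell (28.6%, beside 31.1% of all genes tested), the p21 gene Cdkn1a by 1.08 and the p53 ligase Mdm2 by 0.37 (limma adjusted p = 0.00369). Rps27 itself had no probe set to itself, so the pair was not compared.

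Rps10 and Rps15, both in the head of the small subunit, came next. Rps10, a Diamond-Blackfan gene, read 5.82, 5.80 and 5.86 in the knockout and 5.67, 5.48 and 5.59 in control, a rise of 0.25 ± 0.07 (1.19-fold, limma adjusted p = 0.0197). Its groups did not overlap, and the call was lost without knockout replicate 1 (adjusted p = 0.0519), knockout replicate 3 (0.0691) or control replicate 2 (0.0670). Rps15, which reaches towards the decoding centre, read 8.76, 8.67 and 8.79 in the knockout and 8.63, 8.37 and 8.50 in control. It rose by 0.24 ± 0.08 (1.18-fold, adjusted p = 0.0375), with a wide control group (SD 0.13). Rps29, also a Diamond-Blackfan gene, rose by 0.19 ± 0.06 (1.14-fold, adjusted p = 0.0437), from 9.62 ± 0.07 (SD, n = 3) in control to 9.82 ± 0.06 (SD, n = 3). The calls on Rps15 and Rps29 were lost under each between-array scaling tried (centring, a second quantile normalization and cyclic loess), where the adjusted p ran from 0.0530 to 0.164. Leaving out knockout replicate 1, knockout replicate 3, control replicate 2 or control replicate 3 ended both, and leaving out knockout replicate 2 ended that on Rps29, with adjusted p between 0.0581 and 0.143.

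The remaining core small subunit genes did not pass. Rpsa, the laminin receptor precursor protein, read 8.98, 9.01 and 9.04 in the knockout and 8.92, 8.81 and 8.85 in control, without overlap, at 0.15 (adjusted p = 0.0810). Rps26, near the messenger RNA exit, was at 0.16 (adjusted p = 0.202), Rps3a1 at 0.14 (0.135) and Rps20 at 0.13. The 5 lowest core changes were those of Rps14 (-0.07), whose loss is known from the 5q- syndrome, Rps18 (-0.03), Rps19 (-0.02), Rps24 (-0.02) and Rps28 (0.00). Rps19, the gene mutated most often in Diamond-Blackfan anaemia, read 5.20, 5.13 and 5.22 in the knockout and 5.23, 5.16 and 5.21 in control. Its groups overlapped, and the 95% interval of its change ran from -0.15 to 0.11. Rps14 alone among the core genes had all knockout arrays (6.08, 6.04 and 6.08) below all controls (6.17, 6.11 and 6.13), with an adjusted p of 0.372.

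In the large subunit Rpl12 rose most. Rpl12 sits at the base of the stalk that recruits elongation factors. It read 9.46, 9.45 and 9.42 in the knockout and 9.22, 9.11 and 9.21 in control. The knockout arrays lay close together above all controls, and the rise was 0.26 ± 0.06 (1.20-fold, limma adjusted p = 0.00957). With a second quantile normalization it was at 0.15 (adjusted p = 0.0723), and without both arrays numbered 2 at 0.22 (adjusted p = 0.0574). The name of its probe set gives chromosome 10, while RefSeq places Rpl12 on chromosome 2, and which transcript it reads was not tested. Rplp0, the anchor of the same stalk, read 8.58, 8.58 and 8.60 in the knockout and 8.48, 8.43 and 8.52 in control. It was at 0.11 ± 0.06 and did not pass (adjusted p = 0.168), although its groups did not overlap.

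Rpl39, which lines the tunnel by which the new chain leaves, rose by 0.26 ± 0.08 (1.20-fold, adjusted p = 0.0317), from 5.44, 5.31 and 5.58 in control to 5.72, 5.64 and 5.75 in the knockout. The groups did not overlap, though control array 3 came close to knockout array 2. Leaving out knockout replicate 1, knockout replicate 3, control replicate 1 or control replicate 2 ended the call (adjusted p of 0.0707 to 0.0997). The other 4 genes of the tunnel wall and rim did not pass, and lay between -0.16 (Rpl31) and 0.13 (Rpl35). Rpl41, the smallest protein of the ribosome, rose by 0.20 ± 0.06 (1.15-fold, adjusted p = 0.0401). It read 10.76, 10.81 and 10.84 in the knockout and 10.50, 10.64 and 10.66 in control, again with no overlap. That call was lost in 10 of the 17 alternatives, among them each single array left out except control replicate 3, with adjusted p of up to 0.250. The Rpl41 probe set used is named for chromosome 14, while RefSeq places the gene on chromosome 10. Its probe set on chromosome 10 was at 0.14 and did not pass.

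**Figure D3:**
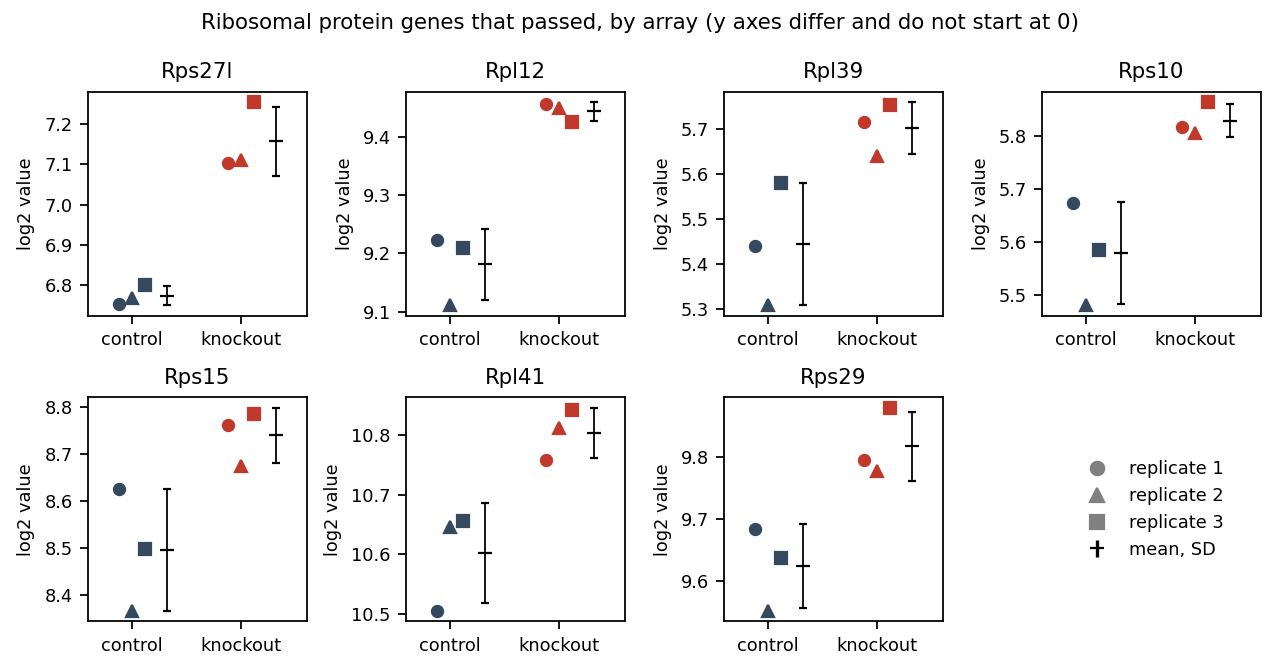
Log2 values of the 7 genes that rose, by array, with the mean and SD of each group beside the points; the y axes differ between panels and do not start at 0. In all 7 the knockout arrays lie above the control arrays, and the widest gap against the spread is that of Rps27l.

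Other large subunit genes did not pass. Rpl27 was at 0.20 (adjusted p = 0.0845), Rpl8, near the catalytic centre, at 0.16 (0.0622) and Rpl35 at 0.13 (0.0961). The probe sets used for Rpl27 and Rpl35 are named for other chromosomes than those of the genes. Rpl11, which binds Mdm2 when it is free of the ribosome, read 4.93, 4.92 and 4.96 in the knockout and 4.90, 4.79 and 4.90 in control. It was at 0.07, with a 95% interval of -0.06 to 0.21. Among core large subunit genes the lowest changes were those of Rpl31 (-0.16 ± 0.12), Rpl6 (-0.05), Rpl22 (0.05), Rpl4 (0.07) and Rpl37a (0.07). The only probe set of Rpl31 is named for chromosome 7, while RefSeq places the gene on chromosome 1. Which transcript it reads was not tested. Of genes often taken as references in PCR, Rpl19 was at 0.09, Rplp0 at 0.11 and Rps18 at -0.03. Of 4 such genes measured only Rps29 passed (25%, beside 31.1% of all genes tested).

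Paralogues mostly stayed within the spread between arrays, with 1 of 12 higher (Rps27l), 0 lower and 11 not passing (median 0.06). The 1 of 12 comes to 8.33%, beside 19.1% of all genes tested that rose. Rpl22l1, the paralogue of Rpl22, varied most: it read 6.80, 6.45 and 7.02 in the knockout and 6.49, 6.34 and 6.76 in control. Array 2 was lowest and array 3 highest in both groups, so the groups overlapped while the gene was higher in the knockout within each number. It was at 0.23 ± 0.15 (adjusted p = 0.262), and with the replicate block at an adjusted p of 0.0234. Rpl22 was at 0.05. The difference between the pair was not tested.

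Rps4l, a copy of the Rps4x gene, had the lowest change of all 47, -0.30 ± 0.11 (adjusted p = 0.0635). It read 5.01, 5.07 and 4.86 in the knockout and 5.43, 5.02 and 5.39 in control, where control array 2 lay within the knockout range. Without control replicate 2 it was at -0.43 and passed (adjusted p = 0.00614). Rpl7l1, an assembly factor related to Rpl7, was at 0.16 (0.0748). The tissue-restricted paralogues Rpl3l (-0.12), Rpl10l (0.00) and Rpl39l (0.04) did not pass. Neither did the copies Rps3a2 (0.05), Rps3a3 (0.05), Rpl6l (0.09), Rpl37rt (0.06) and Rpl32l (0.15). The sequences of copies and parent genes were not compared, so the signal of either cannot be assigned with certainty. Of the genes outside the ribosome, Rps19bp1 was at 0.18 (adjusted p = 0.281) and Rps23rg1 at 0.05.

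Knockout and control arrays were fully separated for 18 of the 47 genes, 16 with the knockout above and 2 below (Rps14 and Rpl3l), which is 38.3% beside 48% of all genes tested. Of 13 Diamond-Blackfan and 5q- genes with a probe set of their own, 2 rose (Rps10 and Rps29) and 11 fell short, at a median of 0.08. The 2 come to 15.4%, beside 19.1% of all genes tested that rose. For 39 of the 47 genes (83.0%) the change was above 0, as for 65.1% of all genes tested. The sign of 17 genes, none of them among the 7, turned in at least 1 alternative. Bright genes in general lay above 0: among the 821 genes with a mean log2 value of at least 8, 83.6% were above 0, 310 rose, 48 fell and the median change was 0.17. With cyclic loess between arrays the median of the 47 was 0.04, that of the 19 small subunit genes 0.01 and that of all genes 0.03.

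Coverage limits what can be said of the ribosome as a whole. Of 77 core ribosomal protein genes, 33 had a probe set to themselves, 37 were found only in probe sets that name several genes, and 7 were not analysed here. Rpl5, Rps6, Rpl10, Rplp1, Rplp2 and Rps27 were among the 37, so no value is given for them. For 6 genes there was more than 1 probe set. In a fit over all probe sets above the dim level, in which 24.9% passed, the pairs of Rpl35 (0.13 and 0.18), Rpl27 (0.20 and 0.14) and Rpl41 (0.20 and 0.14) were both above 0, and those of Rpl7a were at 0.12 and 0.00. Of the 3 of Rps26, those above the dim level were at 0.16 and 0.20. None of these passed in that fit. Of the 7 genes that rose in the first fit, Rpl12, Rps10 and Rps27l passed in it. Rpl39, Rps15, Rpl41 and Rps29 did not (limma adjusted p of 0.0546 to 0.0698). In each of Rpl35, Rpl27, Rpl41 and Rpl7a the brighter probe set is named for another chromosome than that of the gene. So are the only probe sets of Rpl12 and Rpl31, which were kept in the count that follows. With the probe set of the gene's own chromosome, tried after the data had been seen, again 7 of 47 rose: Rpl35 passed (0.18, adjusted p = 0.0439) and Rpl41 did not (0.14, adjusted p = 0.154). Of 210 Rpl and Rps pseudogenes tested, which share sequence with the parent genes, 78 rose (37.1%, beside 19.1% of all genes) and 0 fell, at a median of 0.20, and their difference from the 47 was not tested.

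Genes of the mitochondrial ribosome, a separate set of nuclear genes, were counted for comparison. Of 80 Mrpl and Mrps genes, 49 rose (61.3%, beside 19.1% of all genes), 0 fell and 31 fell short of the threshold. Their median change was 0.27, beside 0.09 for the 47. No test of the difference between these lists was run.

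**Figure D4:**
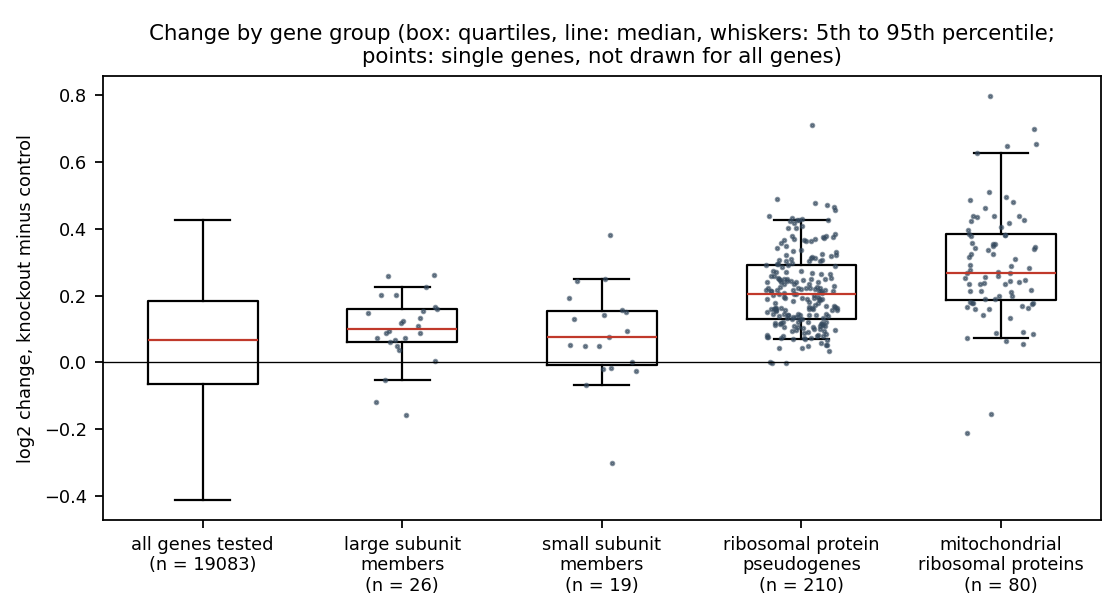
Log2 change (knockout minus control) for all genes tested, the large and small subunit genes, ribosomal protein pseudogenes and mitochondrial ribosomal proteins; boxes are quartiles with the median in red, whiskers the 5th to 95th percentile, points single genes. The subunit genes lie near the median of all genes (0.07), with medians of 0.10 and 0.08, and the mitochondrial group has a median of 0.27.

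Other genes of the translation machinery were counted in the same way, to be read beside the 31.1% of all genes that passed (19.1% higher and 12% lower). Fau, whose product yields a further small subunit protein, was at 0.20 (adjusted p = 0.0999). Of 12 elongation factor and other TOP mRNA genes tested, 1 rose, the histone chaperone Nap1l1 (0.24), and 11 did not pass (median 0.10), with Eef1g at 0.15. Of 22 initiation factors, 5 rose and 1 fell (27.3%, near the share of all genes): Eif3l (0.39), Eif3k (0.26) and Eif3i (0.28) rose and Eif3a, the scaffold of the same complex, fell by 0.38. For RNA polymerase I, which makes ribosomal RNA, 5 of 12 rose and 0 fell (41.7%, median 0.17), among them the subunits Polr1e (0.30) and Polr1c (0.25).

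Assembly factors passed at about the share of all genes. Of 37 small subunit assembly genes, 6 rose and 5 fell (29.7%, median 0.05), with Utp11 at 0.42, Utp18 at -0.53 and the kinase Riok1 at -0.67. Of 39 large subunit assembly genes, 5 rose and 8 fell (33.3%, median -0.02). There the export adaptor Nmd3 (-0.44) and the GTPases Gnl2 (-0.55) and Gtpbp4 (-0.57) fell, and Wdr18 (0.38) and Bop1 (0.32) rose. Among 13 chaperones and importers of ribosomal proteins, 4 rose, including the Rpl3 chaperone Grwd1 (0.23), and 0 fell (30.8%). Of 14 genes of mTORC1 and TOP mRNA control, 4 rose and 0 fell (28.6%, again near the share of all genes): the mTORC1 subunit Mlst8 by 0.59 (adjusted p = 1.91e-04), the translation repressor Eif4ebp1 by 0.41, Pdcd4, an inhibitor of the helicase Eif4a1 and known miR-21 target, by 0.38 and the kinase Rps6kb2 by 0.24.

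Most lists of cell identity markers differed with genotype. LSK identity genes had a mean log2 value of 6.44 to 6.48 over 10 genes on knockout arrays and 6.84 to 6.92 on controls, and 8 of 10 fell. Neutrophil markers stood at 4.52 to 4.65 over 12 genes in the knockout and 3.41 to 3.58 in control, and 12 of 12 rose. Mitosis genes stood at 6.44 to 6.56 over 15 genes against 6.02 to 6.15, and 12 of 15 rose. Of the other marker lists, 4 of 7 monocyte, 2 of 5 T and NK cell and 3 of 6 megakaryocyte genes tested rose. So did 1 of 6 B cell and 1 of 5 erythroblast genes, and 1 of each fell. Of all genes tested, 19.1% rose and 12% fell. List means overlapped between groups for B cell (3.44 to 3.47 in the knockout, 3.43 to 3.46 in control) and erythroblast genes (3.28 to 3.37 and 3.29 to 3.33). Those of the monocyte, T and NK cell and megakaryocyte lists did not overlap and were higher in the knockout. The part of these differences in the values of ribosomal protein genes was not tested, and in such bulk samples a different share of cell types and a different amount of RNA per cell cannot be told apart.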

How the data were processed

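Log2 values of 6 arrays (3 knockout, 3 control) were used as deposited by the authors. RMA is the only tool named in the submitters' processing notes; its version, the log base (read as 2 from the range) and the genome build are not given in the sources used here. RMA gives all arrays the same distribution of probe intensities before these are summarised, so a shift shared by most transcripts would be largely removed. The medians of the deposited values still ran from 1.89 to 1.95 between arrays. Genes were named through GEO's platform annotation, with symbols updated through RefSeq (GRCm38.p6): of 65956 probe sets, 31258 had 1 gene, 1492 several and 33206 were not listed. The chromosome in a probe set's name matched RefSeq for 99.0% of single-gene probe sets. The brightest probe set per gene was taken, and genes with a mean under the median of all probe sets (1.92) were left out (11618 of 30701). limma 3.58.1 in R 4.3.3 compared the groups, two-sided, and was tested on simulated data. The number of arrays limits the precision.

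The members, gene lists and tests were chosen with earlier results of these data known. The 5 highest and 5 lowest changes of each subunit were named, with paralogues and well-known members, and up to 3 genes per list, those of lowest p; examples beyond that were chosen after their values were seen. Replicate numbers did not enter the first fit. They were taken to pair the arrays only for the replicate block and for differences within each number. The ground was that same-numbered arrays deviated together (correlations of 0.22, 0.33 and 0.10), as a finding from the data and not from the labels. For number 3 this ground is weak, since knockout array 3 and control array 1 were at 0.13. Alternatives covered the filter, probe set choice, scaling, variance model, array weights, replicate block and leaving out arrays.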

Additional observations from a re-analysis of the deposited data

Results flagged for a closer look

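Probe sets that name several genes lie outside the comparison above. Of 52 such probe sets that name a core ribosomal protein gene among others, 6 rose in the knockout (11.5%) and 0 fell. This was in the limma fit over all probe sets above the dim level, where 24.9% passed. The share of all probe sets that rose was 11.5% as well. All 6 were among the 35 for the large subunit (17.1%), and 0 of the 17 for the small subunit passed. The medians were alike, 0.11 and 0.12, and the difference between the subunits was not tested. With 3 arrays per group, no group was large enough for the search for single outlying arrays.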

How the results depend on the processing

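The count of 7 genes (3 large, 4 small) depended on the settings. It was 4 (2 and 2) with no filter on dim genes, with each array centred on its median, with a second quantile normalization and with cyclic loess. With array weights it was 11 (6 and 5, with Rps4l as a fall), and with the replicate block 10 (6 and 4). Leaving out 1 array gave 2 to 6 genes, 1 to 3 in the large subunit and 1 to 4 in the small one, with the fewest without knockout replicate 1 or 3 (2 each) and control replicate 2 (3, Rps4l as a fall among them). Without both arrays numbered 2 it was 2 (0 large, 2 small: Rps27l higher and Rps4l lower). The counts were within 1.5 times of the first under a stricter filter, the mean of all probe sets, a variance trend and the own-chromosome probe sets. The share that passed stayed below that of all genes in every setting, between 4.26% and 23.4%, where all genes ran from 17.8% to 43.9%. Rps4l also fell under the stricter filter, and in these settings no other gene of the 47 fell. None of the 7 changed direction in any of the 17 alternatives. In the fit over all probe sets, which is not among the 17, Rpl39, Rps15, Rpl41 and Rps29 did not pass. The block changed no call other than those of Rpl22l1, Rpl27 and Rpl8. The cause of these changes was not tested, beyond the fewer arrays or different genes tested that some settings bring by construction. With 3 arrays per group, changes near 0.15 were mostly not separable from 0.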
